A study of Homo sapiens with 3 samples.

Results

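The BCL2 family decides whether a cell keeps its mitochondria sealed or commits to apoptosis. The 10 members described here were chosen by gene symbol, as a list of 3 survival proteins (BCL2, BCL2L1 and MCL1), 2 pore-forming effectors (BAX and BAK1) and 5 BH3-only death signals (BBC3, PMAIP1, BCL2L11, BIK and BMF). Of these, 9 had at least 1 probe set annotated to that symbol alone, and they held 28 of the 41091 such probe sets, or 9 of 19775 genes. The only probe set that lists BBC3, the gene of PUMA, also lists 2 other genes, so no value is given for BBC3.

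T47D is a human breast cancer line of luminal type that carries the estrogen receptor α. Cells were kept for 4 h in medium with 10% charcoal-stripped serum and then received 0.1% ethanol (the vehicle), 1 µM estradiol or 1 µM ERα17p, and RNA was taken after 3 h. ERα17p is a synthetic peptide that copies a short stretch of the receptor. The labels give an ethanol share for the vehicle cells alone. There were 3 arrays, 1 per group, all from the same line, so no difference has an error between cultures, no test was possible, and every statement below is about these 3 arrays.

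BAX and BAK1 puncture the outer mitochondrial membrane and let cytochrome c escape, which starts the caspase cascade. Survival proteins hold the effectors and the BH3-only proteins in check, and BH3-only proteins relay stress and the loss of growth signals by binding into the groove of the survival proteins. In luminal breast cancer cells BCL2 is known as a gene that estrogen induces, and estrogen is known to favour survival.

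The deposited values are relative, each probe set to a baseline of its own, so levels cannot be compared between probe sets or genes and the markers of a luminal cell could not be checked for presence. Differences between arrays are given as log2 differences, and fold sizes hold only if that base is right. A mean ± SD is over the probe sets of a gene and holds no error between cultures. Members were counted past 1.5-fold (0.58 on the log2 scale) and 2-fold (1 on that scale).

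The vehicle array stood apart from the other two. Over all probe sets other than controls its values had an SD of 0.434, against 0.158 for estradiol and 0.166 for ERα17p. The 3′ minus the 5′ control probe set was 0.52 for ACTB and 0.39 for GAPDH on the vehicle array, and lay between −0.29 and 0.01 on the treated arrays. The 3 control probe sets of 18S RNA averaged −1.76 with vehicle, 0.11 with estradiol and −0.01 with ERα17p. Every difference from the vehicle given below is also a difference between arrays that are unlike in these values. Their part in those differences was not tested.

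The promoters of PMAIP1 and BAK1 are shown because these were the 2 members whose mean was lower by at least 1.5-fold in both treated arrays. They are the 250 bases before the gene start in RefSeq on GRCh38.p14, printed 5′ to 3′ along the gene's strand. That table matched 8 of the 10 members, all but MCL1 and BIK, with 10 promoters among them. PMAIP1 lies on the plus strand at chr18:59899746-59899995, and BAK1 on the minus strand at chr6:33580277-33580526. Capitals mark the half-site of the cyclic AMP response element (TGACG, read as CGTCA on the other strand) and the GC box (GGGCGG, read as CCGCCC on the other strand).
PMAIP1: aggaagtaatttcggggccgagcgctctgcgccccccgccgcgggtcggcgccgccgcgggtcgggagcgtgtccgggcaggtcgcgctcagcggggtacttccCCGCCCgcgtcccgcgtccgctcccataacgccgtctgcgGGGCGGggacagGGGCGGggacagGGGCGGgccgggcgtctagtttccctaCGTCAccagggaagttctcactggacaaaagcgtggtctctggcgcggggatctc
BAK1: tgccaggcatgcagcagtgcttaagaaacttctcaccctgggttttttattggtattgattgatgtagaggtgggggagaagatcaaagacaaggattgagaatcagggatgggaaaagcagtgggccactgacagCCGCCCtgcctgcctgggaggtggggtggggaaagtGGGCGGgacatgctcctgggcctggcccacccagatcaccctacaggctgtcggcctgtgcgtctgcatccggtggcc

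In the PMAIP1 window, 72.8% of bases were G or C, against a median of 58% over all promoters, and BAK1 stood at 58%. The PMAIP1 window held 4 GC boxes and 1 half-site, which covers positions −55 to −51 before the gene start. The BAK1 window held 2 GC boxes and no half-site. Both strands were searched in 35116 promoters of the same length. The half-site was in 21.2% of them and in 5 of the 10 member promoters, and the GC box in 42.6% and 5. BCL2, BCL2L1, BAX, PMAIP1 and BMF held the half-site, and BAX, BAK1, PMAIP1, BCL2L11 and BMF the GC box. BCL2L1 and BMF each have more than 1 promoter among the 10. The complete cyclic AMP response element (TGACGTCA, which contains the half-site), the composite element of ATF4 and C/EBP proteins (TGATGNAAN) and the palindromic estrogen response element were in none of the 10 member promoters and in 1.65%, 3.13% and 0.0399% of all. These matches describe letters in a window and say nothing of what binds there.

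**Figure D1:**
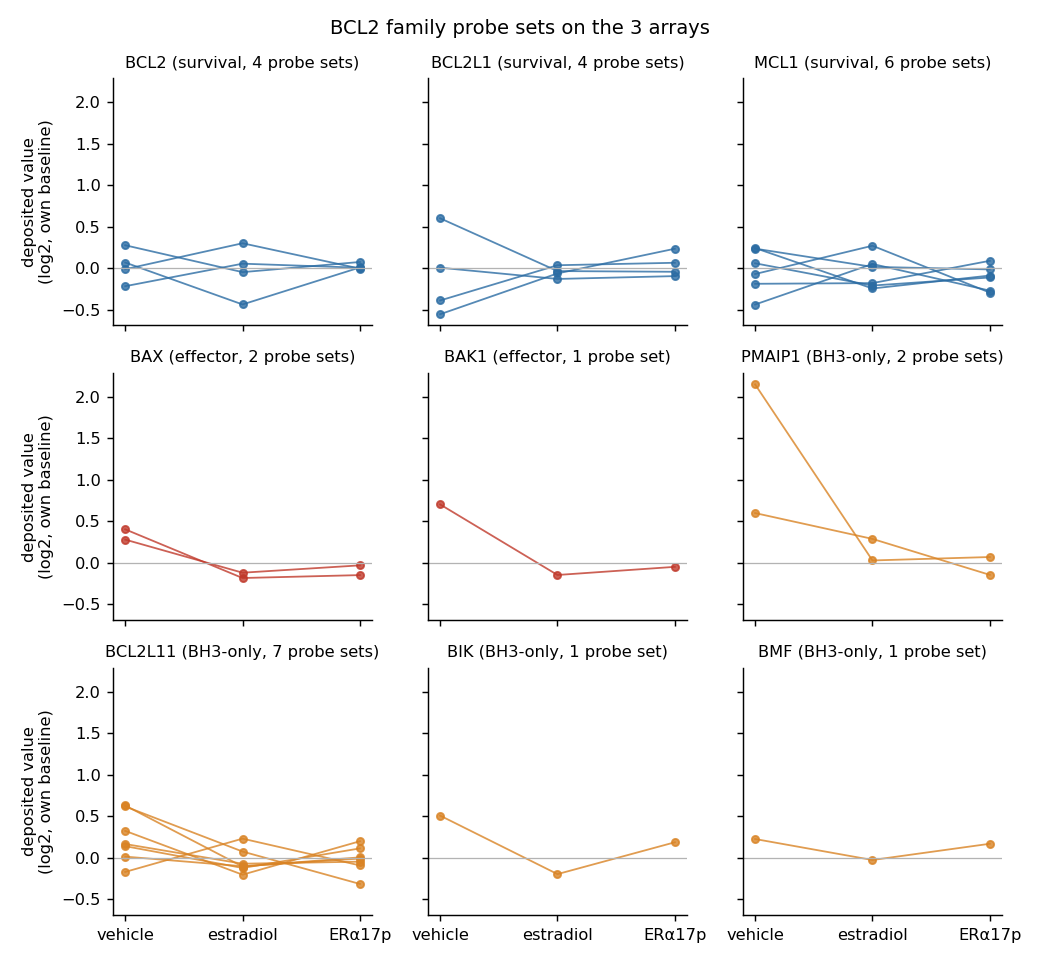
Deposited values (log2, relative to each probe set's own baseline) of the 28 probe sets of 9 BCL2 family genes on the vehicle, estradiol and ERα17p arrays. Each point is 1 probe set on 1 array and each line joins the values of 1 probe set. The vehicle value of one PMAIP1 probe set, 2.15, is the highest in the plot, and the lines of BCL2, BCL2L1 and MCL1 run both up and down.

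Among the survival genes, no gene mean differed by 1.5-fold in either treated array, and the probe sets of each gene pointed both ways. BCL2, the founding survival protein, differed by −0.06 ± 0.42 (SD, n = 4 probe sets) in the estradiol array and by −0.01 ± 0.18 in the ERα17p array. Probe set 203685_at read −0.01 on the vehicle array, 0.30 with estradiol and −0.01 with ERα17p. Probe set 203684_s_at read −0.22, 0.05 and 0.0049 in the same order. The other pair ran the other way with estradiol, 207004_at at 0.28, −0.05 and 0.07, and 207005_s_at at 0.07, −0.44 and 0.01. The estradiol array was thus the highest of the 3 arrays in the first pair of probe sets and the lowest in the second pair.

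BCL2L1 encodes BCL-XL, and by another splice form a shorter protein that promotes death. Its mean difference was 0.04 ± 0.53 (SD, n = 4 probe sets) with estradiol and 0.12 ± 0.63 with ERα17p. Probe set 215037_s_at read −0.56 with vehicle, −0.06 with estradiol and 0.23 with ERα17p, so it was higher by 0.49 and 0.79. Probe set 206665_s_at read −0.39, 0.04 and 0.06 and was higher by 0.42 and 0.45. Probe set 212312_at did the reverse, at 0.60, −0.04 and −0.04, a difference of −0.64 in each treated array. The fourth, 231228_at, read 0.01, −0.13 and −0.10. The SD over the probe sets of BCL2L1 was larger than that of 79.9% of the 10523 genes with more than 1 probe set for estradiol, and than that of 87.7% for ERα17p. Which splice form each probe set reads was not analysed here. Without the probe sets whose identifier ends in _s_at or _x_at, which can bind several transcripts, the mean of BCL2L1 was −0.39 and −0.37.

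MCL1, a short-lived survival protein, had a mean difference of −0.02 ± 0.38 (SD, n = 6 probe sets) with estradiol and of −0.09 ± 0.25 with ERα17p. Its probe sets ranged from −0.49 to 0.49 in the estradiol array and from −0.33 to 0.28 in the ERα17p array. Highest with estradiol was 200796_s_at, which read −0.44 with vehicle, 0.05 with estradiol and −0.27 with ERα17p. Lowest was 214056_at, at 0.24, −0.25 and −0.09. Probe set 227175_at was above the vehicle with estradiol and below it with ERα17p, at −0.07, 0.27 and −0.29. No probe set of MCL1 differed by 1.5-fold from the vehicle in either direction.

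Both effectors were lower in the treated arrays. BAK1, which sits on the mitochondrial surface, had 1 probe set, 203728_at, which read 0.70 with vehicle, −0.15 with estradiol and −0.05 with ERα17p. The vehicle array was the highest and the treated arrays lay close together. The difference was −0.85 with estradiol, or 1.80-fold lower, and −0.75 with ERα17p, or 1.68-fold lower. Of all genes, 3.25% and 4.99% had a lower value in these comparisons. The RNA came from whole cultures, so less RNA in every cell and fewer cells with the transcript cannot be told apart.

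BAX, the effector that waits in the cytosol, was lower in both of its probe sets. Probe set 211833_s_at read 0.40 with vehicle, −0.18 with estradiol and −0.15 with ERα17p. Probe set 208478_s_at read 0.28, −0.12 and −0.03. The mean difference was −0.49 ± 0.13 (SD, n = 2 probe sets) with estradiol and −0.43 ± 0.17 with ERα17p, short of 1.5-fold in both. The vehicle array was the highest in each probe set, and their spread was among the smaller ones, above that of 20.8% of genes for estradiol.

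PMAIP1 had the largest difference of the family. It encodes NOXA, a BH3-only protein that binds MCL1 and is known to be made under stress. Probe set 204286_s_at read 2.15 with vehicle, 0.03 with estradiol and 0.07 with ERα17p. Its difference was −2.12 with estradiol, or 4.35-fold lower, and −2.08 with ERα17p, or 4.23-fold lower, and 0.058% and 0.073% of all single-gene probe sets had a lower value. The second probe set, 204285_s_at, read 0.60, 0.29 and −0.14, a difference of −0.31 and −0.74. Both probe sets were highest on the vehicle array, but they disagreed on the size. The gene mean was −1.22 ± 1.28 (SD, n = 2 probe sets) with estradiol and −1.41 ± 0.94 with ERα17p, and the SD was above that of 99.3% and 97.1% of genes. Both identifiers end in _s_at, so PMAIP1 had no value without such probe sets.

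BCL2L11 encodes BIM, which growth factor signals hold down, and its 7 probe sets gave a mean difference of −0.29 ± 0.37 (SD) with estradiol and −0.27 ± 0.37 with ERα17p. Probe set 1553096_s_at read 0.63 with vehicle, −0.11 with estradiol and 0.0029 with ERα17p, a difference of −0.74 and −0.62. Probe set 1555372_at read 0.62, 0.07 and −0.32, a difference of −0.54 and −0.93. The vehicle array was the highest in both of these. Probe set 1558143_a_at was the 1 above the vehicle in either treated array, at −0.17, 0.23 and −0.09. The other 4 differed by −0.53 to −0.12 with estradiol and by −0.21 to −0.02 with ERα17p.

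BIK, a BH3-only protein of the endoplasmic reticulum, had 1 probe set, 205780_at, at 0.51 with vehicle, −0.20 with estradiol and 0.18 with ERα17p. Its difference was −0.70 with estradiol, or 1.63-fold lower, and −0.32 with ERα17p, or 1.25-fold lower. BMF, a BH3-only protein held on the cytoskeleton until the cell detaches or is stressed, had 1 probe set, 226530_at, at 0.22, −0.03 and 0.17. Its difference was −0.25 with estradiol and −0.06 with ERα17p. In both genes the ERα17p value lay between the other 2.

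**Figure D2:**
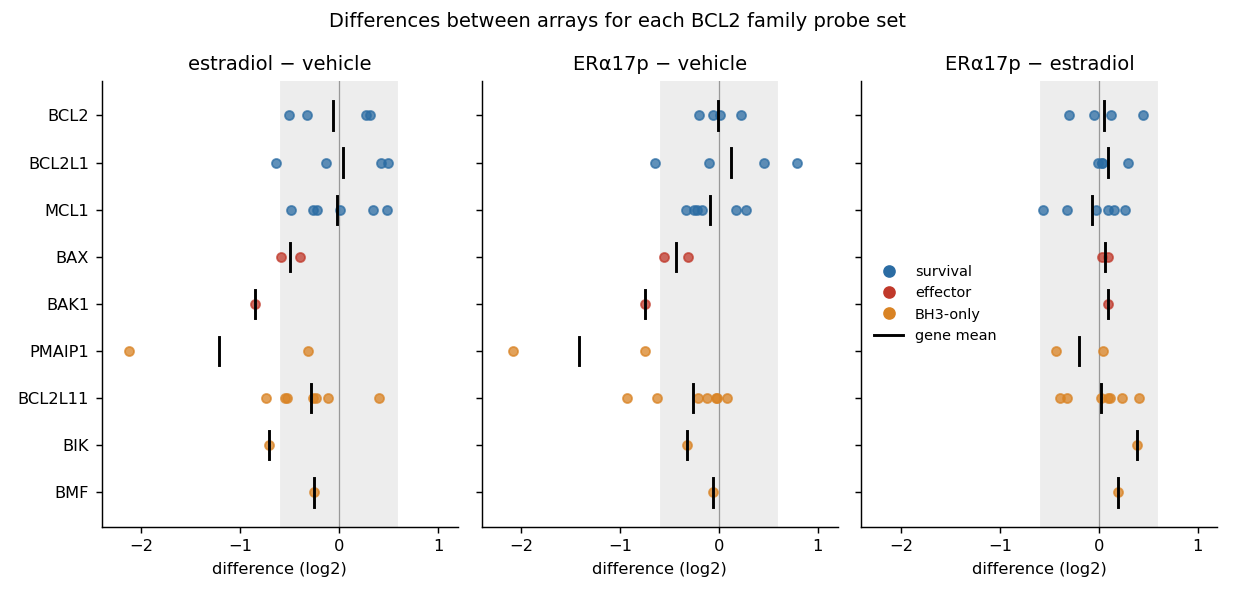
Difference (log2) of each BCL2 family probe set for each treatment against the vehicle and for ERα17p against estradiol. Points are probe sets coloured by role, black bars are gene means and the grey band is the range within 1.5-fold. PMAIP1 and BAK1 lie left of the band by their means in both comparisons with the vehicle, BIK with estradiol alone, and no point leaves the band in the comparison of the treated arrays.

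Counted as genes, 3 of 9 members (PMAIP1, BAK1 and BIK) were lower by at least 1.5-fold in the estradiol array and 0 were higher, where 8.42% and 6.48% of all 19775 genes were. In the ERα17p array 2 of 9 (PMAIP1 and BAK1) were lower and 0 higher, where 8.76% and 6.88% of all genes were. At 2-fold 1 member, PMAIP1, was lower in each, against 1.63% and 1.87% of all genes, and 0 were higher, against 1.57% and 1.9%. These comparisons share the vehicle array, and the members were chosen with earlier results of these data known. Counted as probe sets, 6 of 28 were lower by at least 1.5-fold with estradiol, against 9.99% of all, and 0 were higher, against 10.4%. With ERα17p 6 of 28 were lower, against 10.1%, and 1, of BCL2L1, was higher, against 10.5%.

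**Figure D3:**
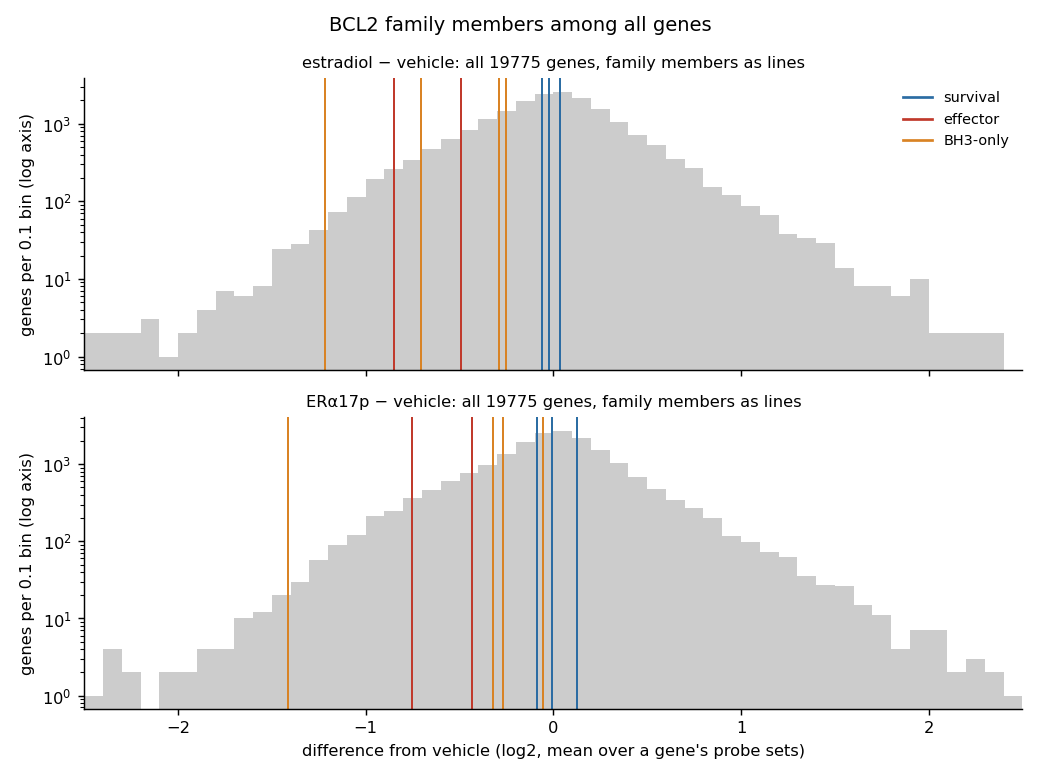
Number of genes (log axis) by their difference from the vehicle array (log2, mean over probe sets), for estradiol above and ERα17p below. Lines are the 9 BCL2 family genes coloured by role. The 3 survival genes stand between −0.09 and 0.12 in both panels, and the 6 death genes stand below 0.

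The survival and death members were then set against each other. In the estradiol array the mean difference was −0.02 ± 0.05 (SD, n = 3 genes) for survival genes, −0.67 ± 0.25 (n = 2) for effectors and −0.62 ± 0.45 (n = 4) for BH3-only genes, while the median over all genes was −0.0043. In the ERα17p array the means were 0.01 ± 0.11, −0.59 ± 0.23 and −0.51 ± 0.61, with a median over all genes of 0.0011. The survival mean minus the death mean was 0.62 with estradiol and 0.55 with ERα17p. All 6 measured death genes were below 0 in each comparison, where 50.6% and 49.9% of all genes were. Of 14 death probe sets 13 were below 0 in each, and of 14 survival probe sets 7 with estradiol and 8 with ERα17p, where 48.9% and 48.2% of all were.

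This contrast was smaller in each of the 4 other forms computed. With medians over genes it was 0.58 with estradiol and 0.37 with ERα17p, and with means over probe sets 0.50 and 0.47. Without the probe sets ending in _s_at or _x_at it was 0.33 with estradiol and 0.11 with ERα17p over the 7 genes left, a set that lacks PMAIP1 and BAX. In that form the survival genes were no longer near 0 as a group. BCL2, BCL2L1 and MCL1 stood at −0.0057, −0.39 and −0.14 with estradiol and at −0.10, −0.37 and −0.24 with ERα17p. Without PMAIP1 alone the contrast was 0.50 and 0.38. The near-zero survival means hold probe sets of opposite sign, as given above for each gene.

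The treated arrays were compared with each other at the same molar dose. No member differed by 1.5-fold, where 0.607% of genes were lower and 0.521% higher by that much with ERα17p than with estradiol. None of the 28 probe sets did, where 1.14% of all were lower and 0.891% higher. The differences of gene means ran from −0.20 ± 0.34 (SD, n = 2 probe sets) for PMAIP1 to 0.38 for BIK, and 97.2% of genes had a lower value than BIK. The lowest probe set was 227175_at of MCL1, at −0.56, and the highest 207005_s_at of BCL2, at 0.45. The survival mean minus the death mean was −0.07. With 1 array each, such values do not show that the hormone and the peptide act alike on these genes.

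The other genes of this pathway were taken from 3 lists, chosen with earlier results of these data known. Of 12 further BCL2 relatives, all measured, 2 were at least 1.5-fold higher with estradiol and 2 lower, where 6.48% and 8.42% of all genes were. With ERα17p 2 were higher and 0 lower, where 6.88% and 8.76% of all genes were. BID, which links death receptors to mitochondria once cut, was higher by 0.61 ± 0.33 (SD, n = 3 probe sets) and 0.66 ± 0.39. BNIP3L, a receptor for the removal of mitochondria, was higher by 0.73 ± 0.78 (SD, n = 2 probe sets) and 0.84 ± 0.60. HRK, a BH3-only gene, stood at −0.68 ± 0.44 (SD, n = 5 probe sets) and −0.49 ± 0.38, and BOK, a relative of the effectors, at −0.63 ± 0.67 (SD, n = 2 probe sets) and −0.56 ± 0.62. The gene means of the 8 others lay between −0.57 (BAD) and 0.52 (BCL2L2) with estradiol. With ERα17p they lay between −0.46 (BAD) and 0.57 (BNIP3). All probe sets of BAD were below 0 in both comparisons, and all of BCL2L2 and BNIP3 above 0. The list medians were 0.05 and 0.03, so relatives outside the 10 members were found on both sides of 0.

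Downstream of the mitochondria 9 of 12 listed genes were measured, and the other 3 were not analysed here. HTRA2, a mitochondrial protease released in apoptosis, was lower by at least 1.5-fold in both treated arrays, at −0.64 ± 0.46 (SD, n = 2 probe sets) with estradiol and −0.60 ± 0.19 with ERα17p. The gene means of the other 8 lay between −0.28 and 0.51 with estradiol and between −0.35 and 0.57 with ERα17p. Among them were the cytochrome c gene CYCS, the apoptosome scaffold APAF1 and the caspase inhibitor XIAP. Single probe sets went further. Those of XIAP (n = 7) reached 1.25 with estradiol and 0.94 with ERα17p. Those of BIRC5 (n = 4) ran from −0.58 to 1.12 and from −0.57 to 0.98, and those of APAF1 (n = 3) from −0.55 to 0.54 and from −0.19 to 0.56. So 1 of 9 was lower by 1.5-fold in each comparison, where 8.42% and 8.76% of all genes were, and 0 were higher, where 6.48% and 6.88% were. The list medians were −0.0029 and 0.02.

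Of 13 listed genes that control the family, 12 were measured and the other was not analysed here. With estradiol 6 were lower by at least 1.5-fold and with ERα17p 7, where 8.42% and 8.76% of all genes were. In each comparison 4 of them, DDIT3, ATF4, TRIB3 and ATF3, were lower by at least 2-fold, where 1.63% and 1.87% of all genes were. By 1.5-fold 0 of the 12 were higher, where 6.48% and 6.88% of all genes were. The list was chosen with earlier results of these data known, so these counts describe it and test nothing. The list medians were −0.56 and −0.61. DDIT3, the stress factor CHOP, read 2.82 with vehicle, −0.09 with estradiol and −0.18 with ERα17p in its 1 probe set, a difference of −2.92 and −3.00. ATF4, the central factor of the integrated stress response, read 1.03, −0.12 and −0.19 in its 1 probe set, a difference of −1.15 and −1.22. TRIB3, a target of both, stood at −1.31 ± 0.68 (SD, n = 2 probe sets) and −1.27 ± 0.57.

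ATF3, a further stress factor, stood at −1.20 ± 1.54 (SD, n = 3 probe sets) and −1.09 ± 1.80, with 1 probe set, 202672_s_at, at −2.97 and −3.16 and the other 2 between −0.44 and 0.08. FOXO3, which can switch on BCL2L11 when growth signals stop, stood at −0.60 ± 0.45 (SD, n = 4 probe sets) and −0.60 ± 0.60. E2F1, a cell cycle factor, was lower in both probe sets, at −0.77 and −0.93 on average. DYNLL2, the dynein light chain that holds BMF, stood at −0.53 ± 0.52 (SD, n = 3 probe sets) and −0.62 ± 0.49. The gene means of the 5 others lay between −0.05 and 0.36 with estradiol and between −0.02 and 0.39 with ERα17p. Among them were MDM2 and the MCL1 ubiquitin ligases HUWE1 and FBXW7, whose probe sets pointed both ways. Those of MDM2 (n = 10) ran from −1.19 to 0.94 with estradiol and from −1.21 to 0.60 with ERα17p. Those of HUWE1 (n = 5) ran from −0.34 to 1.19 and from −0.33 to 0.83, and those of FBXW7 (n = 4) from −0.35 to 0.82 and from −0.43 to 0.86. As with probe set 204286_s_at of PMAIP1, the vehicle array held the high value of DDIT3, of ATF4, of both TRIB3 probe sets and of 202672_s_at. It was also the highest in both E2F1 probe sets and in all probe sets of BAX, BAK1, BIK and BMF. Probe set 1554420_at of ATF3 was highest with ERα17p, at 0.06, −0.12 and 0.14. The share of all probe sets that were highest on the vehicle array was not computed, and a link among these genes was not tested.

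**Figure D4:**
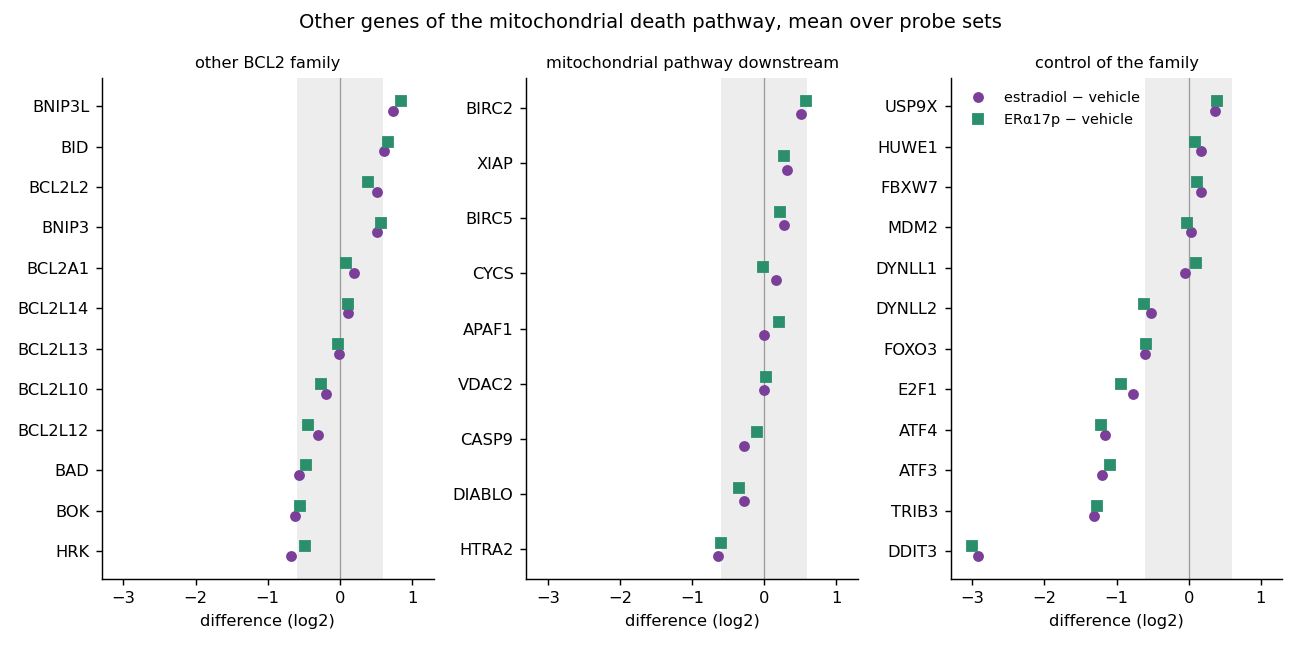
Difference from the vehicle array (log2, mean over a gene's probe sets) of the other measured genes of the pathway, in 3 lists. Circles are estradiol, squares ERα17p and the grey band is the range within 1.5-fold. DDIT3 stands at −2.92 and −3.00, TRIB3, ATF3 and ATF4 stand beyond −1, and the downstream genes lie mostly inside the band.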

How the data were processed

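Biotin-labelled RNA from T47D cells was measured on 3 Affymetrix arrays (HG-U133 Plus 2), 1 per group. The authors deposited 1 table of 54675 probe sets, for which the submitters' processing notes name RMA. These deposited values were taken as log2 because RMA gives log2 values, and their array medians lie between −0.0097 and 0. The centring step, its baseline and the log base stay unknown.

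Control probe sets (62) were left out, and probe sets with several gene symbols or none. Differences were subtracted between arrays, and a gene's value is the mean over its probe sets. In the Results, counts past 1.5-fold and 2-fold stand beside the share of all genes or probe sets past the same fold. With 1 array per group no test was run, and the number of arrays limits the precision. Signal over background is unknown. Alternatives were the median of probe sets, leaving out probe sets ending in _s_at or _x_at, centring on the median, the other fold, probe sets in place of genes and leaving out PMAIP1, which was added after seeing the data.

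The members and lists were chosen with earlier results of these data known. All members were named, and other listed genes where their mean passed 1.5-fold against the vehicle. ATF3 probe sets and a few listed genes below that size were named after their values were seen. The gene differences and 2-fold calls of estradiol minus vehicle were tested on simulated data with known shifts. There all probe sets of a gene shared the same shift and had little noise. So this checked the computation and not the precision of the real arrays. The other computations were not tested in that way. Python 3.11.15, numpy 2.4.6, pandas 2.3.3 and matplotlib 3.10.9 were used.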

Additional observations from a re-analysis of the deposited data

Results flagged for a closer look

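One probe set of MCL1, 227175_at, stood on opposite sides of the vehicle array in the 2 treatments, at 0.34 with estradiol and −0.22 with ERα17p. The 2 comparisons share the vehicle array, each group had 1 array, and the difference between the treatments was not tested. No other probe set of the family stood on opposite sides of the vehicle array.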

How the results depend on the processing

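Counts of members past 1.5-fold in either direction (3 with estradiol, 2 with ERα17p, 0 between the treatments) were the same with the median of probe sets and with centred differences. Of all genes, 8.42% were lower and 6.48% higher by 1.5-fold with estradiol, and 8.76% and 6.88% with ERα17p. Between the treatments 0.607% were lower and 0.521% higher. At 2-fold the counts of members were 1, 1 and 0. By that fold 1.63% of all genes were lower and 1.57% higher with estradiol, and 1.87% and 1.9% with ERα17p. Between the treatments the 2-fold share was not computed. As probe sets the counts past 1.5-fold were 6, 7 and 0 of 28. Of all probe sets, 9.99% were lower and 10.4% higher with estradiol, and 10.1% and 10.5% with ERα17p. Between the treatments these shares were 1.14% and 0.891%. Without probe sets ending in _s_at or _x_at the counts were 2, 1 and 0 of 7 genes. The share of all genes was not computed in that form, so these counts cannot be called high or low. In that last form the survival mean minus the death mean was 0.33, 0.11 and −0.22, against 0.62, 0.55 and −0.07. Between the treatments it was −0.026 over medians, −0.028 over probe sets and −0.13 without PMAIP1. Of the single members, 27 values under the median of probe sets and 27 under centring moved by less than the SD over the gene's probe sets. So did all 21 that could be computed without those probe sets. For genes with 1 probe set the limit was 0.1. Many of these outcomes were fixed in advance. The median equals the mean in genes with 1 or 2 probe sets, and centring takes the same small amount from every value of a comparison. The SD limit is also wide where probe sets disagree. With estradiol BCL2L1 went from 0.04 to −0.39 without those probe sets and stayed within it. So these counts do not show that the values are stable. The loss of PMAIP1 and BAX accounts for the smaller number of genes. Precision is limited by 1 array per group. No paired analysis was possible because each group has 1 array.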
